A study of Mus musculus with 7 samples.

Results

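The Slc25a genes encode the mitochondrial carrier family. Their members were taken as every protein-coding gene in the count table whose symbol is Slc25a followed by digits, which gave 47 of 42256 genes. The counts are from bulk RNA sequencing of whole kidneys. All mice were adult males of the background given as Mixed:129S1/Sv x C57BL/6. The libraries fall into 3 labelled CDH11+/+, here called WT-labelled, and 4 labelled CDH11-/-, here called KO-labelled. Every mouse of both groups had lost a kidney by uninephrectomy and received angiotensin II (800 ng/kg/min by pump), with the kidney taken at 4 weeks. No uninjured kidney was included, so a difference that existed before injury cannot be told apart from one that arose with it. The labels do not describe the allele or say which cells lack it.

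Carriers of this family sit in the inner mitochondrial membrane and exchange nucleotides, phosphate, carboxylates, amino acids, cofactors and metals between the cytosol and the matrix. Most work as exchangers that let a substrate in only when another leaves. The kidney tubule is rich in mitochondria, and its salt and solute transport depends on the ATP that these carriers export and on the fuels they import.

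Total counts ranged from 72087906 to 84786351 per library, and values are given as CPM, a gene's count relative to the scaled total of its library. Cdh11, the targeted gene, stood at 6.79, 4.52 and 10.8 CPM in WT-labelled replicates 1 to 3 and at 11.3, 9.56, 11.6 and 10.98 CPM in KO-labelled replicates 1 to 4. The KO-labelled libraries therefore did not hold less of its RNA (log2 fold change 0.56, SE 0.25, adjusted p = 0.14, edgeR), and every direction below is between labelled groups. Tubule markers were abundant, with Lrp2, the endocytic receptor of the proximal tubule, at 3807 to 5659 CPM. Of 6 adipocyte genes, Adipoq had no count in any library, and Ucp1, which marks brown fat, had at most 1 count per library. Plin1 and Lep had at most 2 counts per library. Fabp4 and Cidec, of the same list, were counted in every library, at 878 to 1587 and 2 to 35 counts. Adipocyte RNA was therefore not shown to be absent. WT-labelled replicate 3 stood apart in some proximal tubule genes, with Slc5a2, a glucose transporter, at 169 CPM against 63.2 and 50.3 CPM in the other WT-labelled libraries and 275 to 315 CPM in the KO-labelled ones.

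DNA next to 4 of the called carriers is shown, between a divergent pair of genes that were both lower and before 2 that were higher. Slc25a29 and Slc25a47, both lower in the KO-labelled libraries, lie back to back on chromosome 12. Slc25a29 spans 108825873 to 108835883 on the minus strand and Slc25a47 spans 108836046 to 108856815 on the plus strand (mm10, GENCODE M21). By these gene bounds 162 bases separate them. The only RefSeq promoter window of Slc25a47 lies inside its span, at 108850879 to 108851178, with 7 CG pairs at a GC content of 53.3%. Its RefSeq start is therefore not next to the 162 bases. Slc25a13 (chromosome 6, 6041218 to 6217173, minus strand) and Slc25a21 (chromosome 12, 56712634 to 57197472, minus strand) were both higher. The stretch between the divergent genes and the 250 bases before the RefSeq starts of Slc25a13 and Slc25a21 follow (RefSeq, GRCm38.p6, read 5′ to 3′ on the minus strand). Capitals mark CG pairs, the sites of DNA methylation.
Slc25a29/Slc25a47, chr12:108835884-108836045: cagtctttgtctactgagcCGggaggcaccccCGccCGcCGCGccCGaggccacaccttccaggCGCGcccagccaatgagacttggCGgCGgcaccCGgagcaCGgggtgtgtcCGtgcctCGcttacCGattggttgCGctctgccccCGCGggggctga
Slc25a13, chr6:6217174-6217423: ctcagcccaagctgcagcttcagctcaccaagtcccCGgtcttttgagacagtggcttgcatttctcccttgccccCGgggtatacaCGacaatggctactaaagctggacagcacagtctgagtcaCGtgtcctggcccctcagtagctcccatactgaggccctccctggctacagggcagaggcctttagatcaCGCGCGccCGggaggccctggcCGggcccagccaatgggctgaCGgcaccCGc
Slc25a21, chr12:57197473-57197722: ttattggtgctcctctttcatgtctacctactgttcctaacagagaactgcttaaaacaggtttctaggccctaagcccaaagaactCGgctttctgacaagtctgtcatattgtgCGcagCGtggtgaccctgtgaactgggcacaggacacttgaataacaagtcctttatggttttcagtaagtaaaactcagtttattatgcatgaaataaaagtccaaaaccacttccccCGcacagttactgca
The stretch between the GENCODE bounds of Slc25a29 and Slc25a47 held 18 CG pairs at a GC content of 71.6%, and the one before Slc25a13 held 11 at 62.8%. The stretch before Slc25a21 held 4 at 43.2%. RefSeq gives Slc25a21 another promoter window, at 57160594 to 57160893, which is not printed. Of the 47 members, 36 matched the RefSeq promoter table, with 46 windows of 300 bases. The palindromic core site of the factor NRF1, 10 bases long, was searched on both strands with no mismatch. It was in 0 of the 46 windows, against 1.33% of the 21262 windows of protein-coding genes and 0.971% of all 32851. The letters AAGGTCA, a site of nuclear receptors such as ERR and likewise searched on both strands, were in 1 window (2.17%), that of Slc25a34, against 4.08% and 4.72%. A match or its absence describes these letters in these windows only.

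Levels differed widely between members. After a low-count filter 43 members were tested. The other 4 were near 0: Slc25a54 had no count in any library, and Slc25a18, a glutamate carrier, Slc25a31, the adenine nucleotide translocase of the testis, and Slc25a41 each stood at 0.127 CPM or less in every library. Per kilobase of merged exons Slc25a5, the widely expressed adenine nucleotide translocase, was the highest at 377 CPM per kb. It held 34.6% of the summed level of the tested members. Slc25a39 followed at 108, the phosphate carrier Slc25a3 at 82.9, the dicarboxylate carrier Slc25a10 at 78.8 and the translocase Slc25a4 at 56.2 CPM per kb. These 5 together held 64.5%. The order of Slc25a39 and Slc25a3 depends on the length used. Per kilobase of the principal transcript, a length chosen after seeing the data, Slc25a5 was still highest at 501 CPM per kb, followed by Slc25a3 at 285, Slc25a39 at 176 and Slc25a10 at 135. At the low end Slc25a2, Slc25a43 and Slc25a53 stood at 0.335, 0.271 and 0.241 CPM per kb of merged exons. Their order depends on the length too: per kilobase of the principal transcript they stood at 0.335, 0.433 and 0.746.

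**Figure D1:**
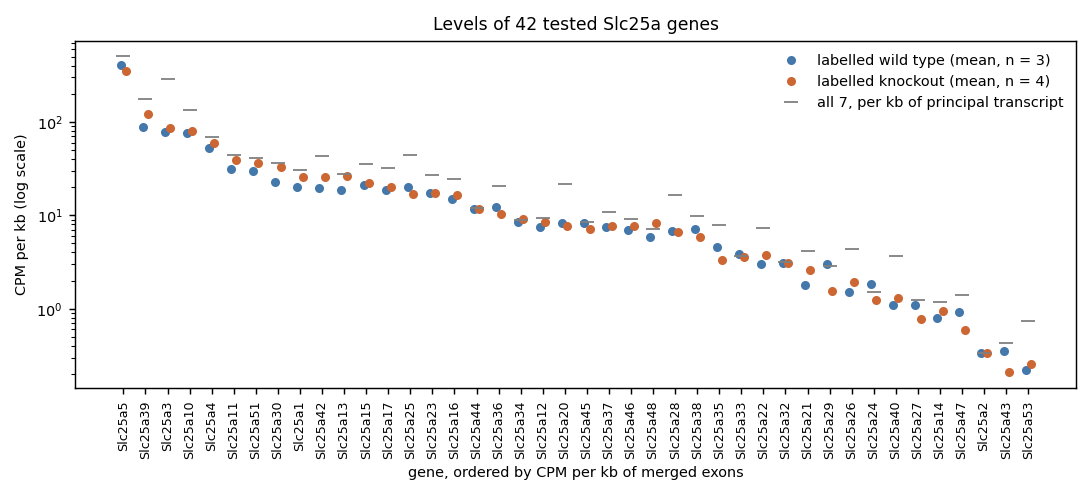
Levels of 42 tested Slc25a genes, in CPM per kilobase of merged exons on a log axis, as the mean of each labelled group (points), with the level per kilobase of the principal transcript over all 7 libraries (grey marks). Per kilobase of merged exons over all libraries, Slc25a5 is highest at 377 CPM per kb and Slc25a53 lowest at 0.241.

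Of the 43 tested members, 10 were called higher and 6 lower in the KO-labelled libraries (adjusted p under 0.05, edgeR's quasi-likelihood test), and 27 were not called. Among all 17964 tested genes 16.8% were called higher, 12.9% lower and 29.7% in either direction. The members' shares were 23.3%, 13.95% and 37.2%, so the share of lower calls was close to the background, and no test set the family against other genes. Their median log2 fold change was 0.07, against -0.01 over all tested genes. The changes were small: the called rises lay between 1.13-fold and 1.43-fold and the called falls between 1.24-fold and 1.97-fold. The CPM ranges of the groups did not overlap in 18 members (41.9%), the 16 called ones and Slc25a3 and Slc25a5, against 38.5% of all tested genes. Without WT-labelled replicate 3, which stood apart, 9 members were higher and 7 lower. Only 6 were called higher without WT-labelled replicate 1 or without KO-labelled replicate 3.

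**Figure D2:**
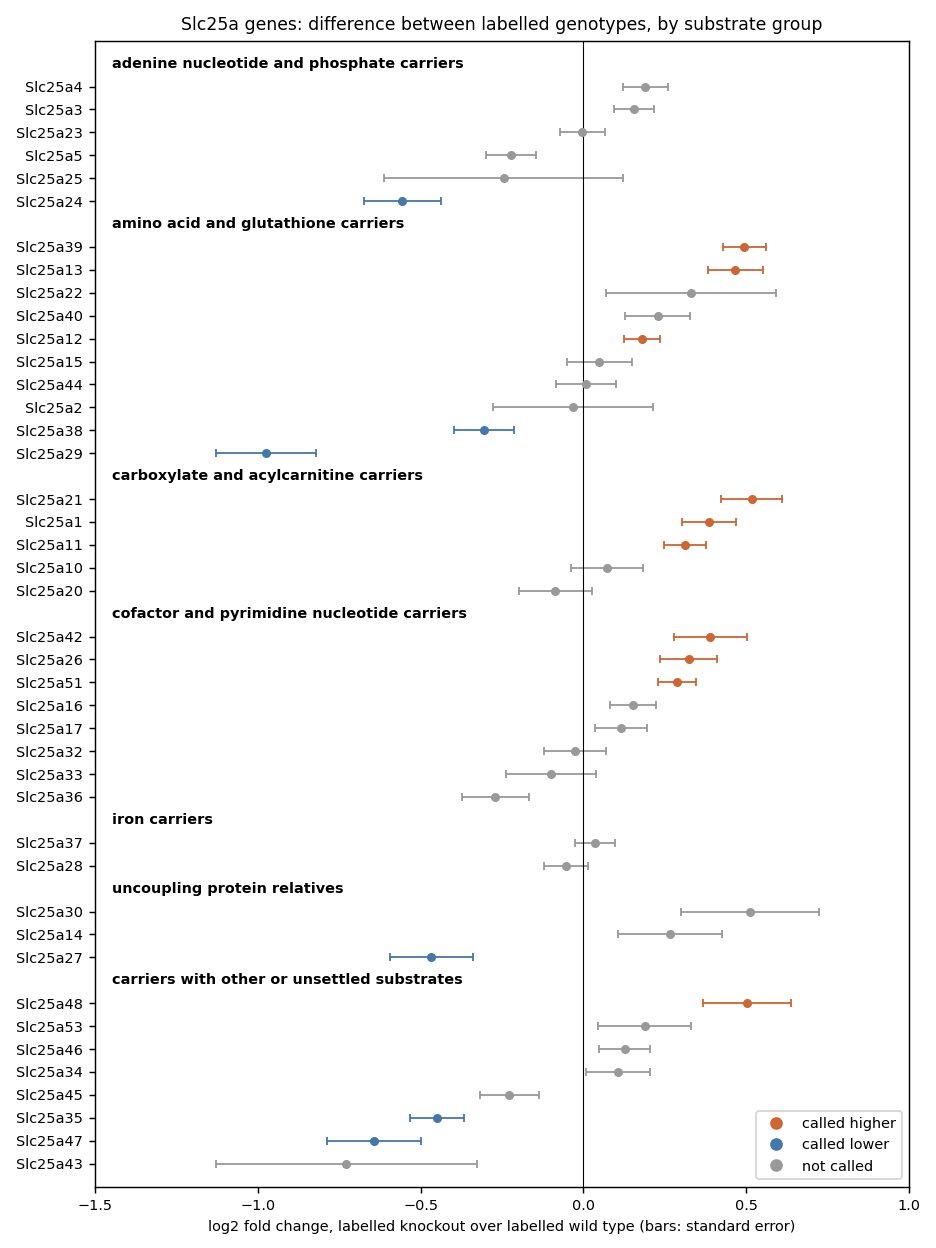
Log2 fold change of 42 tested Slc25a genes (x axis, KO-labelled over WT-labelled, bars are standard errors), grouped by substrate, with called rises, called falls and uncalled genes in separate colours. The 10 called rises lie between 0.18 and 0.52 and the 6 called falls between -0.97 and -0.30.

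The called sets differed in median level and overlapped in range. The median level was 23.0 CPM per kb for the 10 higher members, 1.84 for the 6 lower members and 8.92 for the 27 not called. The lowest level of a higher member was 1.75 CPM per kb, that of Slc25a26, and the highest of a lower member 6.43, that of Slc25a38. This is a description of the called sets, with no test.

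**Figure D3:**
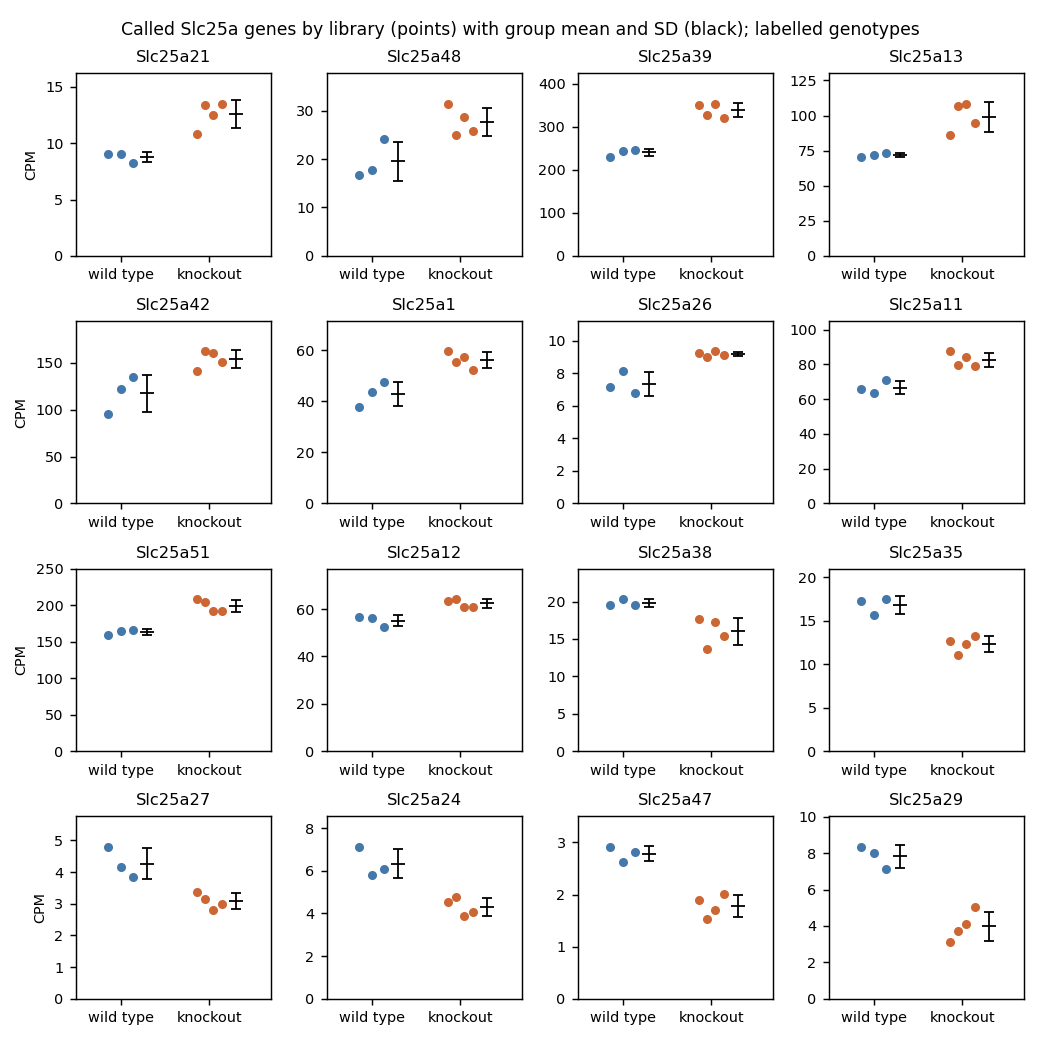
CPM of the 16 called Slc25a genes in each library (points), with the mean and SD of each labelled group (black), each panel from 0 and ordered from the largest rise to the largest fall. In each panel the points of the groups do not overlap, with Slc25a39 at 231 to 247 against 321 to 354 CPM and Slc25a29 at 7.14 to 8.36 against 3.12 to 5.02 CPM.

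Carriers of amino acids and glutathione changed in both directions, 3 higher and 2 lower of 10 tested. The shares over all tested genes were 16.8% higher and 12.9% lower, and no substrate group was tested against them. Slc25a39, which imports glutathione into mitochondria (chromosome 11, 102402985 to 102407946, minus strand), had the smallest adjusted p of the family. It stood at 231, 243 and 247 CPM in the WT-labelled libraries and at 352, 328, 354 and 321 CPM in the KO-labelled ones. Every KO-labelled library was above every WT-labelled one, and the rise was 1.41-fold (log2 fold change 0.49, SE 0.07, adjusted p = 0.000789, edgeR). Its relative Slc25a40 was at 8.71 to 9.99 and 9.68 to 12.2 CPM and was not called (adjusted p = 0.117, edgeR). The ratio of Slc25a39 to Slc25a40 overlapped between the groups (exact 2-sided permutation p = 0.171).

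Slc25a13, citrin, the aspartate-glutamate exchanger of the malate-aspartate shuttle, was at 70.2, 71.6 and 73.2 CPM and at 86.5, 107, 108 and 94.5 CPM. The WT-labelled libraries lay close together and all KO-labelled ones above them, a 1.38-fold rise (SE 0.08 on the log2 scale, adjusted p = 0.00357, edgeR). Slc25a12, aralar, the other exchanger of this kind, was at 56.8, 56.2 and 52.6 CPM and at 63.6, 64.3, 60.8 and 61.0 CPM, a 1.13-fold rise (adjusted p = 0.0381, edgeR). That call was lost without any 1 library (highest adjusted p 0.111, edgeR) and in 14 of 19 alternatives in all. The ratio of Slc25a12 to Slc25a13 was 1.22-fold lower in the KO-labelled libraries, with overlap (exact 2-sided permutation p = 0.114).

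Slc25a29, a carrier of arginine, lysine and other basic amino acids, showed the largest fall. It was at 8.36, 8.02 and 7.14 CPM in the WT-labelled libraries and at 3.12, 3.73, 4.08 and 5.02 CPM in the others. The groups lay well apart at 1.97-fold (log2 fold change -0.97, SE 0.15, adjusted p = 0.00194, edgeR). Its divergent neighbour Slc25a47, a carrier known from liver, was at 2.92, 2.62 and 2.82 CPM and at 1.89, 1.52, 1.71 and 2.005 CPM, 1.56-fold lower (adjusted p = 0.00989, edgeR). Both calls held in all 19 alternatives. The other members within 100 kb of each other were Slc25a23 beside Slc25a41, Slc25a24 beside Slc25a54, and Slc25a5 beside Slc25a43, with Slc25a41 and Slc25a54 too low to test and neither Slc25a5 nor Slc25a43 called.

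Slc25a38, which imports glycine for heme synthesis, was at 19.6, 20.4 and 19.5 CPM and at 17.7, 13.7, 17.3 and 15.4 CPM. It was 1.24-fold lower (adjusted p = 0.0339, edgeR), a call lost without any WT-labelled library or without KO-labelled replicate 2 or 4 (highest adjusted p 0.0936, edgeR). Erythroid markers, with the globin genes, summed to 576 to 701 CPM and 525 to 934 CPM, and 0 of 6 were called. The ornithine carrier Slc25a15 was at 106 to 138 and 113 to 138 CPM, and the branched-chain amino acid carrier Slc25a44 at 39.7 to 42.7 and 36.5 to 47.0 CPM. Neither was called. The glutamate carrier Slc25a22 was at 16.4, 18.7 and 19.0 CPM and at 16.2, 19.3, 19.8 and 35.4 CPM, the last in KO-labelled replicate 4. Its log2 fold change was 0.33 with that library and 0.03 without it, and neither was called.

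Carboxylate carriers had 3 rises and 0 falls among 5 tested, beside 16.8% higher and 12.9% lower among all tested genes. Slc25a21, the oxodicarboxylate carrier used in lysine and tryptophan breakdown, was at 9.01, 9.07 and 8.27 CPM and at 10.8, 13.4, 12.5 and 13.5 CPM. The groups did not overlap, and this 1.43-fold rise was the largest of the called ones (SE 0.09 on the log2 scale, adjusted p = 0.00378, edgeR). Slc25a11, the oxoglutarate-malate exchanger of the malate-aspartate shuttle, was at 65.6, 63.3 and 70.7 CPM and at 87.5, 79.9, 84.1 and 78.8 CPM, a 1.24-fold rise (adjusted p = 0.00675, edgeR). Slc25a1, the citrate carrier that feeds lipid synthesis, was at 38.0, 43.7 and 47.5 CPM and at 59.6, 55.4, 57.4 and 52.5 CPM, a 1.31-fold rise (adjusted p = 0.00794, edgeR). All 3 calls held in the 19 alternatives. The most abundant carrier of the group was not among them: Slc25a10 was at 218, 287 and 288 CPM and at 302, 248, 291 and 272 CPM, with overlapping groups (adjusted p = 0.656, edgeR). Slc25a20, which moves acylcarnitines into the matrix for fatty acid oxidation, was at 35.9 to 44.1 and 31.5 to 44.1 CPM and was not called.

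Carriers of cofactors and pyrimidine nucleotides had 3 rises and 0 falls among 9 tested, beside 16.8% and 12.9% of all tested genes. Slc25a51, the NAD importer, was at 159, 165 and 167 CPM and at 209, 205, 193 and 193 CPM. All KO-labelled libraries were above the WT-labelled ones, a 1.22-fold rise (SE 0.06 on the log2 scale, adjusted p = 0.00674, edgeR). Slc25a26, which imports the methyl donor S-adenosylmethionine, was at 7.13, 8.13 and 6.76 CPM and at 9.25, 9.01, 9.34 and 9.12 CPM, 1.25-fold higher (adjusted p = 0.0215, edgeR). Slc25a42, a coenzyme A carrier, was at 95.4, 122 and 135 CPM and at 141, 162, 161 and 151 CPM, 1.31-fold higher (adjusted p = 0.0282, edgeR). The call for Slc25a26 was lost without WT-labelled replicate 1 or 3 or KO-labelled replicate 3 (highest adjusted p 0.0817, edgeR). For Slc25a42 it was lost without WT-labelled replicate 1 or 2 or KO-labelled replicate 2, 3 or 4 (highest adjusted p 0.077, edgeR). The log2 fold change of Slc25a42 was 0.39, or 0.25 without WT-labelled replicate 1. This gene lies on the same chromosome as Cdh11, at a distance of 32.4 Mb. On that chromosome Slc25a4 and Slc25a15 lie 56.4 and 80.2 Mb from Cdh11, and neither was called.

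The pyrimidine nucleotide carrier Slc25a36 was at 127, 132 and 95.7 CPM and at 103, 96.5, 97.2 and 96.2 CPM. WT-labelled replicate 3 lay with the KO-labelled libraries, and the gene was not called (log2 fold change -0.27, adjusted p = 0.0787, edgeR). With that library left out, Slc25a36 was called lower, at a log2 fold change of -0.41 (adjusted p = 0.0016, edgeR). Slc25a16, at 67.5 to 77.0 and 75.0 to 86.0 CPM, was not called, and the log2 fold changes of Slc25a17, Slc25a32 and Slc25a33 lay between -0.10 and 0.12.

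Carriers of ATP, ADP and phosphate are the most abundant of the family. Of 6 tested, 1 was lower and 0 higher, beside 12.9% lower and 16.8% higher among all tested genes. Slc25a24, a calcium-regulated exchanger of ATP-magnesium for phosphate, was at 7.13, 5.80 and 6.08 CPM and at 4.51, 4.78, 3.87 and 4.07 CPM. It was 1.47-fold lower without overlap (log2 fold change -0.56, SE 0.12, adjusted p = 0.00763, edgeR). Its relative Slc25a23 was at 82.3, 96.2 and 97.6 CPM and at 91.1, 94.7, 90.8 and 90.7 CPM, and was not called. The ratio of Slc25a23 to Slc25a24 was 1.47-fold higher in the KO-labelled libraries, and the groups did not overlap. The exact 2-sided permutation p doubles the smaller 1-sided p over 35 assignments of 7 libraries. It was 0.0571, the smallest this doubling can give, and 0.314 after adjustment over 11 pairs. Slc25a25, the third carrier of this kind, varied within both groups, at 111, 133 and 231 CPM and at 79.8, 114, 149 and 192 CPM (adjusted p = 0.656, edgeR).

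Neither of the adenine nucleotide translocases, which exchange matrix ATP for cytosolic ADP, was called, and their estimates had opposite signs. Slc25a5 (chromosome X, 36795651 to 36798807, plus strand) was at 631, 749 and 648 CPM in the WT-labelled libraries and at 572, 591, 572 and 583 CPM in the KO-labelled ones. The ranges did not overlap, but the test was not passed (log2 fold change -0.22, SE 0.08, adjusted p = 0.0543, edgeR). The gene was called in 10 of 19 alternatives, always in the lower direction. It has near-identical pseudogene copies, so its count is uncertain where reads match several of them. Slc25a4, the translocase of heart and muscle, was at 119, 115 and 134 CPM and at 142, 145, 138 and 133 CPM, also not called (log2 fold change 0.19, SE 0.07, adjusted p = 0.0674, edgeR). The ratio of Slc25a4 to Slc25a5 was 1.33-fold higher in the KO-labelled libraries without overlap, with log2 ratios of -2.41, -2.71 and -2.28 against -2.01, -2.03, -2.05 and -2.13. The exact 2-sided permutation p was again 0.0571, and 0.314 adjusted over the 11 pairs. Slc25a4 made up 11.6%, 9.67% and 12.6% of the summed level per kb of these translocases in the WT-labelled libraries and 14.8%, 14.6%, 14.4% and 13.8% in the KO-labelled ones. The phosphate carrier Slc25a3 was at 425, 439.8 and 431 CPM and at 499, 483, 480.4 and 463 CPM. Its groups did not overlap either, and the difference was not called (log2 fold change 0.16, adjusted p = 0.0843, edgeR).

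**Figure D4:**
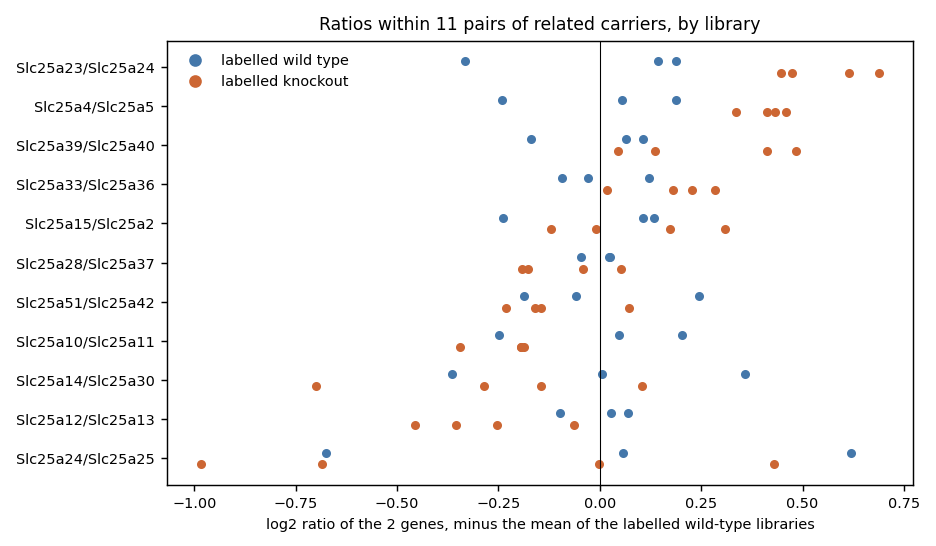
Log2 ratio of the counts of 2 related carriers in each library (points), after subtraction of the WT-labelled mean, for 11 pairs. The groups do not overlap for Slc25a23/Slc25a24 and Slc25a4/Slc25a5, and they overlap in the other 9 pairs.

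Iron carriers and the relatives of uncoupling proteins gave 1 call among 5 tested, against 29.7% of all tested genes called in either direction. Slc25a27, also named UCP4, was at 4.80, 4.16 and 3.84 CPM and at 3.38, 3.16, 2.81 and 2.99 CPM, 1.38-fold lower (adjusted p = 0.0218, edgeR). The call ended without WT-labelled replicate 1 and without KO-labelled replicate 3 (highest adjusted p 0.0862, edgeR). Slc25a30, the kidney mitochondrial carrier protein, was at 125, 113 and 76.8 CPM and at 107, 165, 151 and 176 CPM. It had the second largest positive log2 fold change of the family, 0.51, and was not called, with the lowest KO-labelled library below 2 of the WT-labelled ones (SE 0.21, adjusted p = 0.111, edgeR). Without KO-labelled replicate 1 the adjusted p was 0.03 (log2 fold change 0.64, edgeR). The mitoferrins, which supply iron for heme and iron-sulphur clusters, were not called: Slc25a37 was at 42.2, 47.0 and 45.3 CPM and at 44.2, 48.3, 45.0 and 46.3 CPM, and Slc25a28 at 24.6 to 27.3 and 23.2 to 26.3 CPM. The 95% intervals of their log2 fold changes ran from -0.12 to 0.19 and from -0.23 to 0.12.

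Among carriers whose substrate is less settled, 1 rose and 2 fell of 8 tested, beside 16.8% and 12.9% of all tested genes. Slc25a35 was at 17.3, 15.6 and 17.5 CPM and at 12.6, 11.01, 12.3 and 13.3 CPM, 1.37-fold lower without overlap (adjusted p = 0.00378, edgeR). Slc25a47 was the other fall. Slc25a48, linked to choline uptake by mitochondria, was at 16.7, 17.7 and 24.1 CPM and at 31.4, 25.0, 28.6 and 25.7 CPM, 1.42-fold higher (adjusted p = 0.0232, edgeR). Its WT-labelled replicate 3 lay nearest to the other group, and the call was lost without WT-labelled replicate 1 or 2 or KO-labelled replicate 1 or 3 (highest adjusted p 0.0958, edgeR). Slc25a46, a carrier relative of the outer membrane and the most abundant of this group in CPM, was at 35.4 to 40.4 and 38.6 to 44.6 CPM and was not called. Slc25a34, the highest of the group per kilobase of merged exons at 8.92 CPM per kb, was at 20.5, 26.1 and 21.9 CPM and at 26.4, 21.8, 24.9 and 25.1 CPM and was not called either. Per kilobase of the principal transcript Slc25a46 was higher, at 9.19 against 8.92 CPM per kb.

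Some called carriers share exonic bases with a gene on the opposite strand. The kit keeps strand, but the sources used here do not say whether the counting used it. The partners were Rnf167 for Slc25a11, Lrig1 for Slc25a26, Rangrf for Slc25a35 and Pax9 for Slc25a21. Rnf167 was also called higher (1.17-fold, adjusted p = 0.0208, edgeR), so for Slc25a11 the sources of reads cannot be told apart fully. Rangrf and Lrig1 were not called (log2 fold changes 0.03 and 0.22), and Pax9 was at 0.0231 CPM or less in every library.

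Most calls among other genes of mitochondrial transport were rises, beside shares of 16.8% higher and 12.9% lower among all tested genes. Of 18 further inner membrane transporters 10 rose and 1 fell, with Micu2 and Smdt1, both of the calcium uniporter complex, 1.42-fold and 1.44-fold higher, the ATP-driven transporter Abcb8 1.41-fold higher and the sideroflexin Sfxn3 1.31-fold lower. Vdac1, the abundant channel of the outer membrane, rose 1.28-fold, while Vdac2 and Vdac3 were not called. In the machinery that brings carriers into the membrane 2 of 13 rose, the small chaperones Timm8b and Timm13 (1.26-fold and 1.35-fold), and 0 fell. The central subunit Timm22 had a log2 fold change of 0.10 and was not called. None of 3 tested carrier-fold genes with other symbols was called: Mtch1, Mtch2 and Ucp2 had adjusted p of 0.203, 0.056 and 0.277 (edgeR).

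The enzymes that work with these carriers gave mixed calls, beside 16.8% higher and 12.9% lower among all tested genes. In the malate-aspartate and glycerol phosphate shuttles 3 of 6 enzymes rose and 1 fell. The malate dehydrogenases Mdh1 and Mdh2 were 1.37-fold and 1.21-fold higher and Gpd2 1.25-fold higher, whereas the cytosolic aspartate aminotransferase Got1 was 1.33-fold lower. Of 5 carnitine shuttle genes Cpt2 and Crat were 1.29-fold and 1.19-fold higher and Cpt1b, the muscle-type palmitoyltransferase, 1.86-fold lower. Respiratory chain subunits rose in 17 of 20 with 0 falls and a median log2 fold change of 0.29, a list chosen with earlier results of these libraries known, so not independent evidence of its direction. Of 8 genes of mitochondrial maintenance, 4 rose (Phb, Hspd1, Opa1 and Tfam) and 0 fell. Among 8 regulators of mitochondrial genes Esrrg and Tfb2m rose 1.29-fold and 1.28-fold, and Ppargc1a, a coactivator of mitochondrial biogenesis, was 1.34-fold lower.

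**Figure D5:**
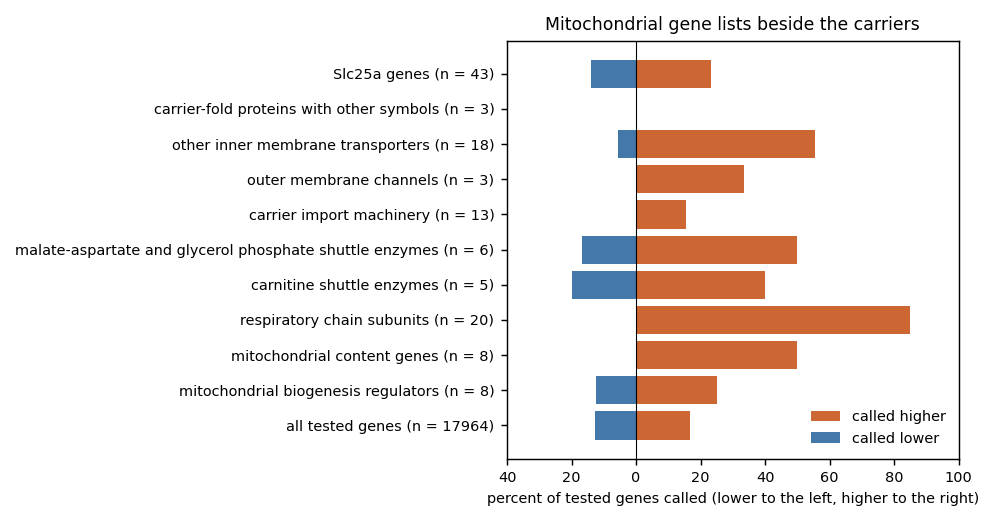
Percent of tested genes called higher (right) and lower (left) in the KO-labelled libraries, for the Slc25a genes, lists of other mitochondrial genes and all tested genes, with the number tested beside each name. Of the Slc25a genes 23.3% were higher and 13.95% lower, against 16.8% and 12.9% of all tested genes.

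Cell type markers moved between the groups as well, beside 16.8% called higher and 12.9% lower among all tested genes. Proximal tubule markers rose in 7 of 12 with 0 falls, and their summed level was 11412 to 13083 CPM in the WT-labelled libraries and 16774 to 18737 CPM in the KO-labelled ones. Principal cell markers fell in 4 of 6 (362 to 518 against 270.2 to 318 CPM), intercalated cell markers in 3 of 6 (197 to 339.8 against 144 to 193 CPM), endothelial markers in 4 of 8 (456 to 581 against 348 to 416 CPM) and podocyte markers in 4 of 5 (403 to 498 against 249 to 367 CPM), all with 0 rises. Thick ascending limb markers had 1 rise and 1 fall of 6 (3232 to 4300.0 against 2568 to 3175 CPM). Distal convoluted tubule markers had 1 fall of 5 (3620.1 to 4512 against 2461 to 3219.8 CPM). That fall was Slc12a3, the highest of this list, at a mean of 2424 against 1415 CPM. Calb1 and Pvalb had positive log2 fold changes (0.32 and 0.70), Trpm6 and Wnk1 negative ones (-0.45 and -0.26), and none of these was called. Fibroblast markers had 1 rise and 1 fall of 6 (192 to 359 against 299 to 375 CPM), and leukocyte markers 1 rise of 7 (34.1 to 69.7 against 61.1 to 73.0 CPM). Transcripts of the mitochondrial genome took 17.95% to 22.3% of the counts in the WT-labelled libraries and 14.8% to 18.5% in the others. Its ribosomal RNAs (mt-Rnr1 and mt-Rnr2) made up most of that share, with 13.5% to 18.2% and 10.7% to 13.5% of the counts. The lower share therefore does not describe the messenger RNAs of the mitochondrial genome. The part of these differences in the carriers' values was not tested. In whole tissue, fewer cells of a type and less RNA per cell cannot be told apart.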

How the data were processed

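The deposited table of expected counts (estimated reads of each gene) holds whole numbers for 7 libraries, so nothing was rounded. The deposited normalized values (a signal) equal the counts times gene-specific factors and were used only in alternatives. Per the submitters' processing notes the tools were DRAGEN and DESeq2 with build mm10. For roles, versions, annotation and strand setting the value is not given in the sources used here. Per the labels' protocols, libraries came from a directional NEBNext Ultra II kit. Groups follow the labelled genotype, and replicate numbers only name libraries, so p-values measure the spread between these libraries.

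Symbols, positions and merged exon lengths are from GENCODE M21 (GRCm38, the mm10 assembly). Genes were filtered with filterByExpr (17964 left), scaled by TMM and tested 2-sided with edgeR 4.0.16 (quasi-likelihood, robust, R 4.3.3), called when the adjusted p (Benjamini-Hochberg) was under 0.05 over all tested genes. The SE is the log2 fold change divided by the root of its F value, and 95% intervals use a t distribution on 5 degrees of freedom. CPM are on TMM-scaled totals. Ratios of related genes used counts plus 0.5 and exact permutation over libraries (SciPy 1.17.1). Alternatives used DESeq2 1.42.0, limma 3.58.1 (voom, and trend on log2 of the normalized value plus 1) and sva 3.50.0, other scalings and filters, and the omission of each library. On simulated counts the edgeR step recovered 59.7%, 85.1% and 100% of the 67, 67 and 66 genes given log2 changes of 0.5, 1 and 2. Of its calls 6.3% were false. The changed genes were few and all above a mean of 1 CPM, whereas 29.7% of all tested genes were called in the data. The shares recovered may therefore differ from those in the real fit. Smaller changes were not simulated, so a member that was not called may still differ. No pair of libraries agreed within sampling noise (median chi-square per gene of at least 2.69).

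Members, lists and tests were chosen with earlier results of these data known. Every called member is named, and in each substrate group up to 3 called members by adjusted p and the highest per kilobase of merged exons are given by library. The remaining members are given by ranges, except 1 tested member that is counted but not reported here by name.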

Additional observations from a re-analysis of the deposited data

Results flagged for a closer look

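Among 54 sets of 4 KO-labelled values (43 genes and 11 ratios), 3 held a value far from the other 3 libraries, and chance alone gives about 1 in 20. Slc25a23 was at 94.7 CPM in KO-labelled replicate 2, against 90.7 to 91.1 CPM in the other KO-labelled libraries. Slc25a36 was at 103 CPM in KO-labelled replicate 1, against 96.2 to 97.2 CPM. The log2 ratio of Slc25a10 to Slc25a11 was 1.64 in KO-labelled replicate 2, against 1.78 to 1.79. Groups of 3 were not examined in this way.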

How the results depend on the processing

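Over the 12 alternatives in tool, scaling, filter, covariate and unit, 8 to 12 members were called higher and 6 to 8 lower, against 10 and 6. Leaving out 1 library at a time gave 6 to 9 higher, 5 to 7 lower, a median log2 fold change of the members of 0.02 to 0.14, and 3804 to 5300 calls over all genes, against 5327. Of the 16 called members 9 were called in all 19 alternatives: Slc25a1, Slc25a11, Slc25a13, Slc25a21, Slc25a29, Slc25a35, Slc25a39, Slc25a47 and Slc25a51. No called member changed direction in any of them. Slc25a24 missed the threshold with offsets from the deposited factors of each gene (adjusted p = 0.0534, edgeR), and Slc25a12 and Slc25a26 did too (adjusted p = 0.327 and 0.0856, edgeR). The cause was not tested. Of the 27 uncalled members 6 were called in at least 1 alternative, Slc25a5 most often. With library sizes taken without transcripts of the mitochondrial genome 15 of the 16 calls were kept. No paired analysis was possible because the labels give no replicate numbers that the groups share. With 3 against 4 libraries the ratio tests, which double the smaller 1-sided p, cannot reach a p under 0.0571.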

Other observations

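The deposited normalized values carry a factor per gene and library, and for some carriers it differed between the labelled groups after division by each library's median. The mean log2 factor of Slc25a13 was 0.08 in the WT-labelled and -0.06 in the KO-labelled libraries, and that of Slc25a14 0.10 and -0.07. For Slc25a32 the means were -0.09 and 0.07, for Slc25a35 -0.06 and 0.05, and for Slc25a24 -0.06 and 0.05. With these factors as offsets the log2 fold change of Slc25a12 was 0.09 in place of 0.18, and that of Slc25a13 0.33 in place of 0.47.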
